A study of Mus musculus with 6 samples.

Results

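Hoxa6, Hoxa7, Hoxa9, Hoxa10, Hoxa11 and Hoxa13 form the central and posterior part of the Hoxa cluster, and they were taken by name, as every protein-coding Hoxa gene from Hoxa6 to the 5′ end of the cluster. All 6 genes were among the 35591 rows of the expression table. Their mRNA was measured by RNA sequencing in tailbud, which holds presomitic mesoderm (PSM), dissected from mouse embryos of E8.5 with 8 somites. The tailbud was cut posterior to the last segmented somite. There were 3 wild-type embryos (Smchd1+/+, here WT) and 3 embryos homozygous for the missense allele MommeD43 (Smchd1 MommeD43/MommeD43), all on the FVB/NJ strain. No further allele or treatment is given in the labels. Replicate 1 of each genotype was a male, and the other replicates, 2 and 3, were females. By the labels both males had the same mother, and the 4 females had 4 different mothers. The allele is carried by every cell of the embryo, and the comparison here covers tailbud alone.

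Hox genes encode homeodomain transcription factors that give positions along the head-to-tail axis their identity. Within a cluster they are switched on one after the other, in the order in which they lie on the chromosome, as the tailbud lays down new trunk and tail. The central genes, Hoxa6 and Hoxa7, act in the thoracic region, Hoxa9 at more posterior thoracic levels, Hoxa10 in the lumbar region, Hoxa11 in the sacral region and Hoxa13 in the tail and hindgut. SMCHD1 is a chromatin protein of the SMC family that acts on the inactive X chromosome and on clustered autosomal genes, the Hox clusters among them. The comparison asked whether the MommeD43 allele altered the level of Hox genes in the tissue that forms the vertebrae.

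The 6 genes lie in a row on the minus strand of chromosome 6 (GRCm38.p6). Hoxa6 spans chr6:52206288-52208722, with 2 exons that add up to 874 bases and overlap no other annotated exon. Hoxa7 spans chr6:52214491-52221854, and 20.4% of its 2876 exonic bases overlap exons of the antisense gene Hoxaas3. Hoxa9 spans chr6:52223100-52231089, and 1.52% of its 5580 exonic bases are also those of the microRNA gene Mir196b on the same strand. Hoxa10 (chr6:52231197-52240854, 3270 exonic bases) and Hoxa13 (chr6:52257694-52260880, 2472 exonic bases) share no exonic base with another gene. Hoxa11 lies between them at chr6:52242106-52245810, and 35.0% of its 2287 exonic bases overlap the antisense gene Hoxa11os. The libraries were made with a kit that keeps strand, but the strand setting of the counting is not given in the sources used here, so reads in the overlapped parts of Hoxa7 and Hoxa11 are of uncertain origin. Hoxaas3 is abundant in this tissue, between 95.6 and 118 RPKM (reads of a gene scaled by its exon length in kilobases and by the library total), against 15.3 to 25.7 RPKM for Hoxa7.

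Promoter sequence is shown for Hoxa6 and Hoxa7, neighbours whose ratio within each library is compared later. The windows, from the RefSeq promoter table on GRCm38.p6, were trimmed to bases upstream of the RefSeq start that lie in no annotated exon of the gene. For Hoxa7 other annotated transcripts begin further upstream, so its stretch lies within the span of the gene, in their introns. The Hoxa6 stretch covers chr6:52208723-52208922 and the Hoxa7 stretch chr6:52218712-52218823, both on the minus strand and read 5′ to 3′. Capitals mark TTTATG, a sequence bound by the CDX homeodomain factors that drive trunk Hox genes, searched on both strands (as TTTATG or CATAAA, which do not overlap each other here).
Hoxa6: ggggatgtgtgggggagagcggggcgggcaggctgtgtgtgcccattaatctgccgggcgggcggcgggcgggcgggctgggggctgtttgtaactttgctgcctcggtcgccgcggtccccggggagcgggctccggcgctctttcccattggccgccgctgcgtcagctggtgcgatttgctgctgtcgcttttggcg
Hoxa7: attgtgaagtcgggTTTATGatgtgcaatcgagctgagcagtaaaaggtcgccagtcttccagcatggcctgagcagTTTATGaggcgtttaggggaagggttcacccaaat
The Hoxa7 stretch held TTTATG 2 times, ending 168 and 231 bases upstream of the RefSeq start. The Hoxa6 window held neither form, and neither did those of Hoxa9, Hoxa10, Hoxa11 and Hoxa13. Of all 32851 promoter windows of 300 bases in the table, 11.9% held at least 1 match and 1.27% held 2 or more. A match is a description of the sequence, and binding was not measured here.

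Library totals, recovered from the deposited values, were between 10957916 and 47298348 reads, and the 2 shallowest libraries were MommeD43 replicates 1 and 3. The 12 markers of tailbud and PSM, such as T, Tbx6 and Msgn1, had reads in all 6 libraries and summed to 661.6 to 900.1 RPKM in WT and 667.7 to 795.7 RPKM in MommeD43. The 4 markers of anterior neural tissue summed to 0.199 RPKM or less in every library, and the 6 markers of formed somites to 2.58 RPKM or less. A field of the labels says neural stem cells where the tissue field and titles say tailbud, and the markers are those of tailbud. Primitive blood and yolk sac markers differed widely between libraries of the same genotype, and their values are given beside the results they move with. Smchd1 itself, whose missense allele need not change its mRNA, was at 7.31, 8.58 and 8.31 RPKM in WT and at 7.94, 7.66 and 7.15 RPKM in MommeD43, a log2 difference of -0.09 ± 0.09 (SE). Of 13617 autosomal genes tested with limma, 0 had an adjusted p under 0.05 (Benjamini-Hochberg) and 327 had an unadjusted p under 0.05.

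In WT tailbud the 6 genes covered a range of levels, with Hoxa7 the most abundant as counted and Hoxa13 the least. Hoxaas3, at a mean of 108 RPKM in WT, overlaps 20.4% of the exonic bases of Hoxa7. Its part in the Hoxa7 level and rank was not tested. Hoxa7 was at 23.8 ± 1.81 RPKM (SD, n = 3) and Hoxa9 at 18.3 ± 3.45 RPKM. Hoxa10 followed at 4.43 ± 1.09 RPKM, Hoxa11 at 2.77 ± 0.957 RPKM and Hoxa6 at 2.26 ± 0.206 RPKM. Hoxa13 was at 1.17 ± 0.143 RPKM. The WT ranges of Hoxa7 and Hoxa9, of Hoxa9 and Hoxa10, and of Hoxa6 and Hoxa13 were separate, whereas those of Hoxa10 and Hoxa11 and of Hoxa11 and Hoxa6 overlapped. The order Hoxa7, Hoxa9, Hoxa10, Hoxa11 held in all 6 libraries. From Hoxa7 on, the level as counted thus declined along the cluster in every embryo.

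Hoxa6 stood out of this order as a low point between more abundant neighbours. In WT it was at a lower level than Hoxa5 on its 3′ side, which had 5.84 ± 0.495 RPKM (SD, n = 3). Hoxa6 was also far below Hoxa7, as counted, on its 5′ side. Of the summed RPKM of the 6 genes, Hoxa7 made up between 41.3% and 48.7% in every library, and Hoxa9 between 26.3% and 38.4%. Hoxa10 made up 6.03% to 15.6%, Hoxa11 3.11% to 7.96% and Hoxa13 1.16% to 3.64%. Hoxa6 made up 1.61% to 4.40%. These shares rest on the Hoxa7 reads as counted, the overlap with Hoxaas3 included. The summed level itself was 49.3, 55.8 and 53.2 RPKM in WT and 37.1, 52.4 and 43.3 RPKM in MommeD43.

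**Figure D1:**
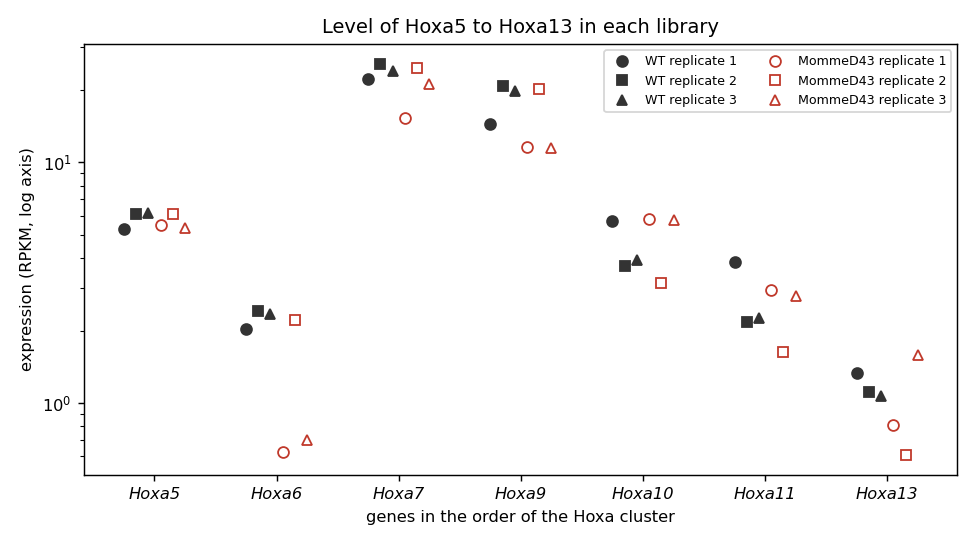
Level in RPKM (log axis) of Hoxa5 and the 6 central and posterior Hoxa genes, in cluster order, with 1 point per library (filled, WT; open, MommeD43; circle, square and triangle for replicates 1, 2 and 3). Hoxa6 lies below its neighbours in every library, and MommeD43 replicates 1 and 3 are at 0.626 and 0.699 RPKM against 2.03 to 2.42 RPKM in WT.

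By log2 fold change, Hoxa6 was lower in MommeD43 than in WT by more than the other 5 genes. In RPKM the drop in the mean was larger for Hoxa9 (18.3 to 14.4 RPKM) and Hoxa7 (23.8 to 20.4 RPKM). Differences between the genes were not tested. For Hoxa6 the difference lay in 2 of the 3 MommeD43 embryos. Its level in WT replicates 1, 2 and 3 was 2.03, 2.42 and 2.34 RPKM, from 65, 50 and 34 reads. MommeD43 replicates 1, 2 and 3 were at 0.626, 2.20 and 0.699 RPKM, from 6, 91 and 8 reads. Replicate 2 lay within the WT range, so the groups overlap, and replicates 1 and 3 lay below every WT library. At the WT mean level, replicates 1 and 3 would have had 21.7 and 25.9 reads. The exact 95% intervals, which cover counting error only, were 0.230 to 1.36 RPKM for MommeD43 replicate 1 and 0.302 to 1.38 RPKM for replicate 3. Both lay below the WT intervals, of which the lowest bound was 1.57 RPKM. These embryos are the 2 shallowest libraries of the series, and the part of depth beyond counting error was not tested. Hoxa6 is also the gene the study singled out from the same libraries, so its place here is not independent of that choice.

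**Figure D2:**
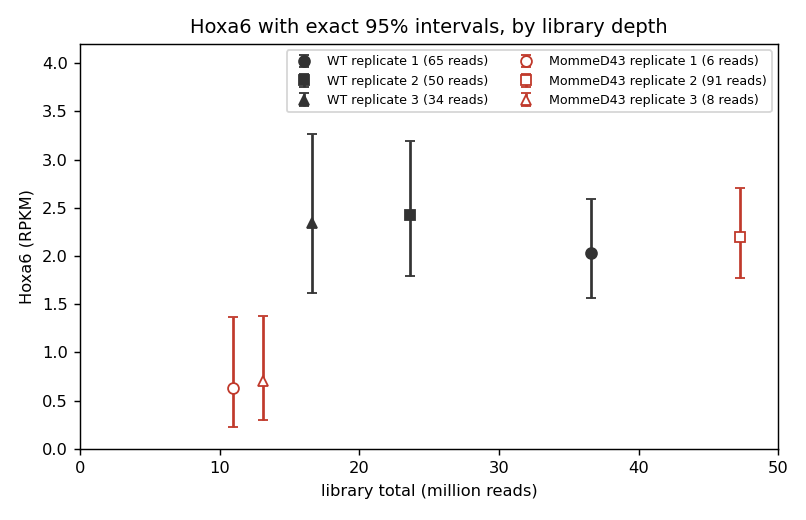
Hoxa6 level (RPKM, from 0) against library total, with 1 point per library and its exact 95% interval from counted reads (filled, WT; open, MommeD43). MommeD43 replicates 1 and 3, with 6 and 8 reads, lie below the WT intervals at the low end of depth, and MommeD43 replicate 2, the deepest library, lies within the WT range at 2.20 RPKM.

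The mean of Hoxa6 was 2.26 ± 0.206 RPKM in WT and 1.18 ± 0.889 RPKM in MommeD43 (SD, n = 3 each). In limma the log2 fold change, MommeD43 minus WT, was -1.19 ± 0.43 (SE), with a 95% interval of -2.18 to -0.20. Its unadjusted p was 0.0240, and its adjusted p over all genes was 0.999. Of all genes tested, 0.977% were lower at an unadjusted p under 0.05 (133 genes) and 1.42% were higher. The spread differed between the genotypes, with an SD of log2 RPKM of 0.13 in WT and 1.004 in MommeD43, where the median over all genes was 0.133 in WT and 0.126 in MommeD43. That median is over genes of all read numbers, whereas Hoxa6 had 6 and 8 reads in MommeD43 replicates 1 and 3. Its SD there includes wide counting error. Without MommeD43 replicate 2 the log2 fold change was -1.77 ± 0.19, with an adjusted p of 0.319 by limma and an unadjusted p of 2.3e-05. That fit leaves out the only MommeD43 embryo in the WT range. The log2 fold change was -0.86 without MommeD43 replicate 1 and -0.94 without MommeD43 replicate 3 (unadjusted p of 0.086 in both by limma), and the unadjusted p was also above 0.05 without WT replicate 2 (0.060) or WT replicate 3 (0.057). As a library average, a lower level does not tell fewer cells that express a gene from less RNA per cell.

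Against its neighbours within each library, Hoxa6 had similar ratios in the 3 WT embryos and dissimilar ones in MommeD43. The ratio of Hoxa6 to Hoxa5 was 0.386, 0.398 and 0.380 in WT replicates 1, 2 and 3, and 0.114, 0.361 and 0.131 in MommeD43. All 3 MommeD43 embryos were below all 3 WT embryos, although replicate 2 only by a small margin. Exact 95% intervals of the Hoxa6 level were 1.57 to 2.59, 1.80 to 3.19 and 1.62 to 3.27 RPKM in WT. For MommeD43 replicate 2 the interval was 1.77 to 2.70 RPKM. This counting error is wider than the spread of the WT ratios and than the margin of replicate 2, so neither is resolved by these reads. The mean log2 ratio was lower by 1.14 in MommeD43, with an SD of 0.03 among WT and 0.91 among MommeD43 embryos (two-sided exact permutation p = 0.1, the smallest that 3 against 3 allow). The ratio of Hoxa6 to Hoxa7 was 0.0921, 0.0943 and 0.0983 in WT and 0.0409, 0.0892 and 0.0332 in MommeD43. Here too the groups did not overlap, and the mean log2 ratio was lower by 0.94 (exact permutation p = 0.1, again the smallest possible). Neither ratio can reach a p under 0.05 with these numbers of embryos. Both ratios share the Hoxa6 values and are not separate evidence. Hoxa7 reads in the part that overlaps Hoxaas3 are of uncertain origin, which limits the ratio of Hoxa6 to Hoxa7.

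**Figure D3:**
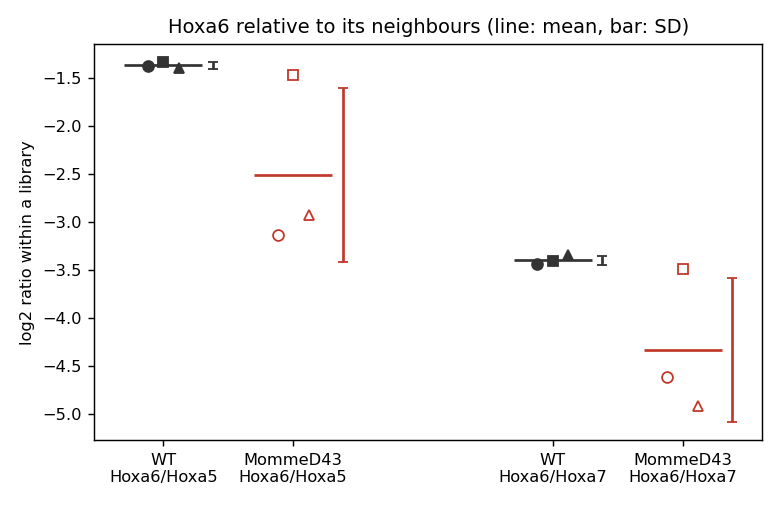
Log2 ratio of Hoxa6 to Hoxa5 and of Hoxa6 to Hoxa7 within each library (filled, WT; open, MommeD43; circle, square and triangle for replicates 1, 2 and 3), with the mean as a line and the SD as a bar. The WT points lie together (SD 0.03 and 0.05), and the MommeD43 points lie below them, replicate 2 closest.

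Hoxa7 and Hoxa9, the most abundant of the 6 genes as counted, had lower means in MommeD43 by amounts within the spread between embryos. Hoxa7 was at 22.0, 25.7 and 23.8 RPKM in WT and at 15.3, 24.7 and 21.1 RPKM in MommeD43. MommeD43 replicates 1 and 3 lay below every WT embryo, and replicate 2 lay inside the WT range. The log2 fold change was -0.25 ± 0.16, with a 95% interval of -0.61 to 0.11 and an adjusted p of 0.999 in limma.

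Hoxa9 was at 14.4, 20.8 and 19.8 RPKM in WT and at 11.6, 20.1 and 11.4 RPKM in MommeD43. The division was again that of Hoxa6, with MommeD43 replicates 1 and 3 below every WT embryo and replicate 2 among the WT values. The log2 fold change was -0.38 ± 0.23, with a 95% interval of -0.91 to 0.14 and an adjusted p of 0.999 in limma. The value depended on single embryos, being -0.65 without MommeD43 replicate 2 and -0.24 without replicate 3. For Hoxa7 it was -0.40 without MommeD43 replicate 2 and -0.06 without replicate 1.

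Hoxa10 and Hoxa11 differed between embryos of the same genotype more than between genotypes. Hoxa10 was at 5.69, 3.69 and 3.92 RPKM in WT and at 5.80, 3.16 and 5.77 RPKM in MommeD43. High values were thus found in WT replicate 1 and MommeD43 replicates 1 and 3, and low values in the other 3 embryos. The log2 fold change was 0.12 ± 0.26, with a 95% interval of -0.47 to 0.72, and its sign was the opposite in limma without MommeD43 replicate 1 or 3.

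Hoxa11 was at 3.87, 2.17 and 2.26 RPKM in WT and at 2.95, 1.63 and 2.77 RPKM in MommeD43. The same 3 embryos had the higher values, and the groups overlapped. The log2 fold change was -0.17 ± 0.29, with a 95% interval of -0.83 to 0.49, and its sign was the opposite without WT replicate 1 or MommeD43 replicate 2. Hoxa11os, which overlaps it on the other strand, was at 1.05, 0.523 and 0.372 RPKM in WT and 0.742, 0.378 and 0.845 RPKM in MommeD43, again higher in those 3 embryos. As the strand setting of the counting is not given, Hoxa11 and Hoxa11os may hold some of the same reads. The values of Hoxa11os are therefore not separate evidence of this division.

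Hoxa13, the last gene of the cluster and a regulator of tail and hindgut patterning, was the least abundant in WT. It was at 1.34, 1.11 and 1.07 RPKM in WT, from 121, 65 and 44 reads, and at 0.812, 0.607 and 1.58 RPKM in MommeD43, from 22, 71 and 51 reads. MommeD43 replicate 3 was above every WT embryo and replicates 1 and 2 were below. The log2 fold change was -0.35 ± 0.33, with a 95% interval of -1.11 to 0.42 in limma. It was -0.73 without MommeD43 replicate 3 and -0.05 without replicate 2.

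As a group, all 6 genes passed the filter on low values and 5 had a lower mean in MommeD43, where 49% of all genes tested did. Their median log2 fold change was -0.30, and that of all genes was 0.0025. In 0 of 6 were the groups without overlap, against 3.55% of all genes without overlap and lower and 3.53% without overlap and higher. Hoxa6 alone had an unadjusted p under 0.05. Hoxa2, Hoxa3, Hoxa4 and Hoxa5, more anterior genes of the same cluster, had log2 fold changes between -0.05 and 0.20, with a median of -0.0042, 3 lower and 1 higher, and 0 at an unadjusted p under 0.05. Hoxa5, whose neighbour is Hoxa6, had -0.05 ± 0.10.

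**Figure D4:**
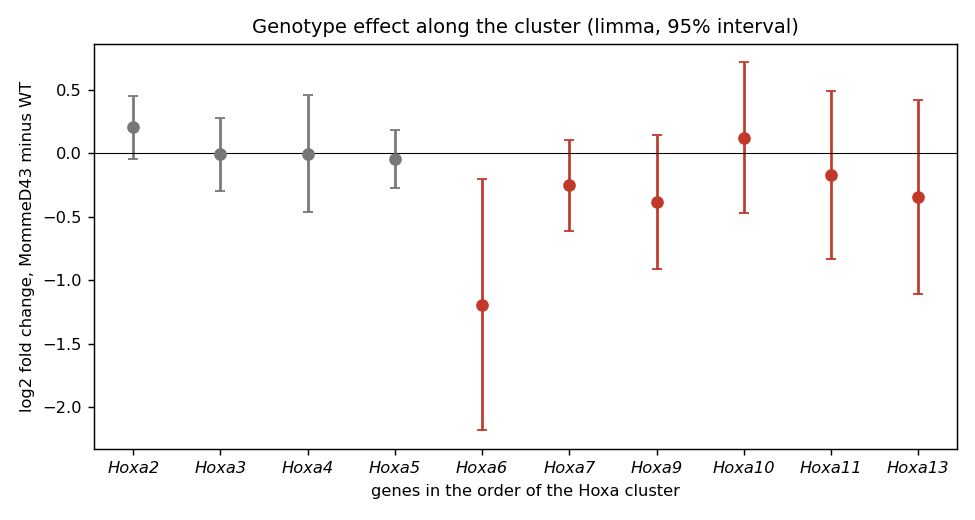
Log2 fold change (MommeD43 minus WT, limma) with its 95% interval for 10 Hoxa genes in cluster order (grey, Hoxa2 to Hoxa5; red, Hoxa6 to Hoxa13). Hoxa6 at -1.19 has the only interval plotted that does not reach 0, and no gene has an adjusted p under 0.05.

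The embryos differed in a way that crossed genotype, with opposite deviations of Hoxa9 and Hoxa10. The ratio of Hoxa10 to Hoxa9, chosen after the values were seen and therefore not tested, was 0.396 in WT replicate 1 and 0.178 and 0.198 in WT replicates 2 and 3. In MommeD43 it was 0.501, 0.157 and 0.506. The ratio of Hoxa11 to Hoxa9 was 0.269, 0.104 and 0.115 in WT and 0.255, 0.0809 and 0.243 in MommeD43. WT replicate 1 thus had the ratios of MommeD43 replicates 1 and 3, while MommeD43 replicate 2 had those of WT replicates 2 and 3. Within MommeD43, Hoxa6 followed this division, with 0.626 and 0.699 RPKM in replicates 1 and 3 and 2.20 RPKM in replicate 2. WT replicate 1 did not share that low level, with 2.03 RPKM of Hoxa6 against 2.42 and 2.34 RPKM in WT replicates 2 and 3.

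Summed markers of primitive blood differed along the line of these Hoxa10 and Hoxa11 ratios. The summed level of 7 blood markers was 8.93, 484.5 and 204.7 RPKM in WT and 25.4, 219.5 and 22.7 RPKM in MommeD43. Not every blood marker did so: Hba-a1 differed little within MommeD43, at 9.92 ± 2.05 RPKM (SD, n = 3). Gata1, the defining factor of that lineage, had 0 reads in WT replicate 1 and MommeD43 replicates 1 and 3. Tbx4, a gene of the allantois and hindlimb mesoderm, went the other way, with 23.0, 13.3 and 13.4 RPKM in WT and 22.0, 9.28 and 16.2 RPKM in MommeD43. The 5 markers of lateral mesoderm and allantois, Tbx4 among them, summed to 131.3, 146.9 and 132.7 RPKM in WT. In MommeD43 they summed to 129.6, 145.3 and 155.0 RPKM, so the list as a whole did not follow that line. Cdx1, an activator of trunk Hox genes, was at 123, 46.5 and 53.1 RPKM in WT and 80.3, 60.3 and 92.2 RPKM in MommeD43, higher in the same 3 embryos as Hoxa10. Yolk sac and visceral endoderm markers, 6 genes with reads in every library, summed to 100.2, 187.0 and 205.2 RPKM in WT and to 334.5, 35.1 and 25.1 RPKM in MommeD43, and did not follow it. The part of these other tissues in the Hoxa values was not tested.

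**Figure D5:**
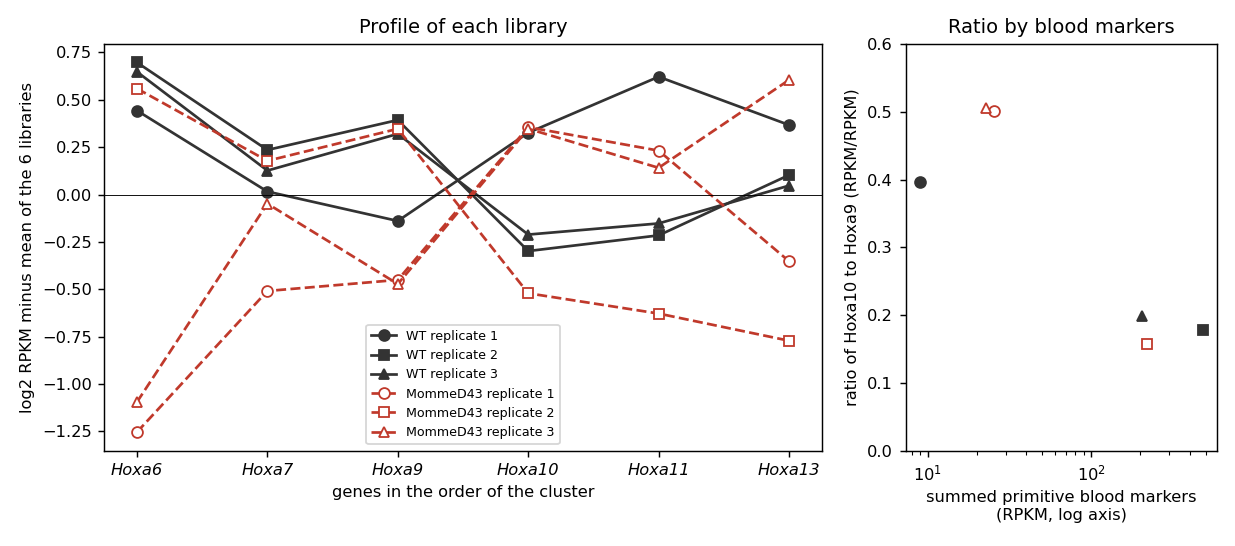
Left, log2 RPKM of each of the 6 genes minus its mean over the 6 libraries, in cluster order, with 1 line per library (filled and solid, WT; open and dashed, MommeD43). Right, the ratio of Hoxa10 to Hoxa9 (from 0) against the summed RPKM of primitive blood markers (log axis); the 3 libraries with ratios of 0.396 to 0.506 have blood sums of 8.93 to 25.4 RPKM, and the others 204.7 to 484.5 RPKM.

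Males and females were then considered separately. Between the 2 WT and 2 MommeD43 females the log2 fold change of Hoxa6 was -0.94, and between the 2 males it was -1.70. The interaction of sex and genotype in limma had an adjusted p of 0.753 for Hoxa6, and between 0.438 and 0.936 for the other 5 genes. Of all 13617 genes, 37 had an adjusted p under 0.05 in that test. The males stand for 1 embryo of each genotype, which limits this test.

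The paralogues of these genes in the other clusters, which share their position in the cluster and act on the same segments, did not all have the same direction. Of 13 paralogues of groups 6 to 13, 11 passed the filter, 7 were lower and 4 higher in MommeD43, and their median log2 fold change was -0.14, against 49% of all genes lower and a median of 0.0025. The group 6 genes Hoxb6 (0.13 ± 0.16) and Hoxc6 (0.02 ± 0.14) had log2 fold changes near 0. Their 95% intervals, -0.23 to 0.48 and -0.30 to 0.35, overlapped that of Hoxa6, -2.18 to -0.20. The difference between Hoxa6 and these paralogues was not tested. Hoxb7 (-0.04 ± 0.11) and Hoxb9 (-0.14 ± 0.10) were also near 0. The more posterior Hoxc10 (-0.59 ± 0.18), Hoxd10 (-1.001 ± 0.45), Hoxd11 (-0.61 ± 0.29) and Hoxd13 (-0.66 ± 0.22) were lower in all 3 MommeD43 embryos than in any WT embryo, but none had an adjusted p below 0.999 in limma. These are 4 of the 11 tested, where 3.55% of all genes were lower without overlap. Hoxc10 and Hoxd13 had an unadjusted p under 0.05, as 0.977% of all genes did with a lower level. Hoxc11 (-0.35 ± 0.58), also posterior and tested, did not show this separation, and neither did Hoxa10, Hoxa11 and Hoxa13. Over the 6 libraries Hoxc10, Hoxd10, Hoxd11 and Hoxd13 had 891, 308, 195 and 617 reads, and Hoxc11 had 100.

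Hoxd10, which specifies lumbar identity with Hoxa10, is the paralogue with the lowest fold change. It was at 1.203, 1.469 and 1.491 RPKM in WT and at 0.302, 1.04 and 1.05 RPKM in MommeD43. Replicate 1, with 6 reads, was far below the others, whereas Hoxa10 in that embryo was at 5.80 RPKM, its highest value.

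The genes that act upstream of Hox activation in the tailbud were also compared. Of 10 such genes, among them Cdx2, Wnt3a and Fgf8, 9 were tested, and their log2 fold changes were between -0.09 and 0.19 with 0 at an unadjusted p under 0.05. Cdx2, a direct activator of trunk Hox genes, was at 183, 154 and 161 RPKM in WT and at 148, 165 and 179 RPKM in MommeD43. Cdx4, which is X-linked and was left out of the test, was at 233, 227 and 276 RPKM in WT and at 171, 246 and 275 RPKM in MommeD43. MommeD43 replicate 1 had the lowest value of both.

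Partners with which HOX proteins bind DNA (8 Pbx, Meis and Pknox genes) were lower in 1 and higher in 7 cases, with a median of 0.08 on the log2 scale. The genes next to and antisense within the cluster (8 tested, such as Evx1 and Skap2) had a median of 0.05, and Hoxaas3 itself had -0.03 ± 0.08. None of these had an unadjusted p under 0.05.

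Over all 6 libraries, the autosomal genes whose centred log2 RPKM was closest to that of Hoxa6 were Col12a1 and Mpc1 (root mean square difference 0.27 each), Mamstr (0.31), Gpr157 (0.33) and Yjefn3 (0.34). Like Hoxa6 they had few reads, at most 11 in MommeD43 replicate 3 and at most 7 in MommeD43 replicate 1. The nearest Hox gene was Hoxa9, with a difference of 0.52 and rank 61 of 13616 genes. Hoxd10 (0.56), Hoxc10 (0.61), Hoxd13 (0.64) and Hoxa7 (0.64) came next among Hox genes. The order is over 6 libraries and is given as a description.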

How the data were processed

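Tailbud RNA of 3 WT and 3 MommeD43 embryos was sequenced, and the labels gave each sample's group, number and sex. Whether samples share technical steps is not stated, and p-values measure the spread between these embryos. Per the labels and the study's methods, the authors trimmed reads with Trim Galore 0.4.4, mapped them with HISAT2 2.0.5 to GRCm38.p6 and quantified genes in SeqMonk; the deposited values are log2 RPKM, and the authors' mean columns were not used. Of 35591 rows, 35555 matched GENCODE M21, whose merged exon lengths gave back whole reads (98.8% of 49690 values under 200 reads within 0.02 of a whole number). Unread genes sit at 0.9 read, which gave the library totals. Genes with 10 reads at median depth in at least 3 libraries and 15 reads in all were kept (13617 autosomal).

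Groups were compared with limma 3.58.1 (R 4.3.3) on log2 RPKM without a pseudocount, with a mean-variance trend, two-sided and adjusted over all autosomal genes. Levels are RPKM and intervals exact (Clopper-Pearson, 95%, counting error only). On simulated data with 200 genes changed 2-fold among 13617, limma recovered 90.5% with 6 calls among unchanged genes. The simulation gave every gene the same spread beyond counting error and no tissue differences between embryos. The share recovered therefore does not carry over to genes with a wider spread between embryos, such as Hoxa6. The members and lists were chosen with earlier results of these data known. Named genes were the members, Hoxa2 to Hoxa5, the paralogues, upstream, partner and neighbouring genes, Smchd1, and the 5 genes closest to Hoxa6. Alternatives, all listed with the design, were other scaling, filters, pseudocounts, covariates, a block on the replicate number, the females by themselves, leaving out libraries and voom. Gata1, Tbx4, Hoxa11os and the marker sums are given as context.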

Additional observations from a re-analysis of the deposited data

Results flagged for a closer look

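In 34 of the 87 listed genes that were tested, every difference between a MommeD43 and a WT female was of one sign and that between the males of the other. The same was found in 27.7% of all autosomal genes tested, a smaller share. The lists hold groups of markers of the same tissue, so the listed genes are not separate cases. None of the 6 Hoxa genes described above was among the 34. The values that follow are the log2 fold change of the males minus that of the females. Among Hox genes and transcripts of the cluster region they were Hoxa3 (-0.55), Hoxb6 (-0.66), Hoxd9 (-0.65), Hotairm1 (-0.45), Evx1 (-0.91) and Evx1os (-0.90). Among genes upstream of Hox activation they were Cdx1 (-1.20), Cdx2 (-0.43), Lin28a (-0.20), Wnt3a (-1.36) and Fgf8 (-0.79). Among HOX partner genes they were Pbx4 (-2.19), Meis1 (1.55), Meis2 (0.79) and Meis3 (-0.50). Among further tailbud and PSM markers they were T (-0.91), Tbx6 (-0.72), Msgn1 (-1.06), Nkx1-2 (-0.80), Dll1 (-0.42) and Rspo3 (-0.50). All 6 markers of yolk sac and visceral endoderm showed it, namely Ttr (4.26), Afp (4.58), Apoa1 (5.08), Apob (4.81), Apoa4 (4.60) and Cubn (4.85). The rest were Smchd1 and markers of other tissues: Smchd1 (0.31), Hba-a1 (3.06), Kdr (1.04), Foxa1 (1.04), Shh (1.01), Prl3d1 (-5.40) and Hand1 (-0.51). By the interaction test in limma 8 of the 34 had an adjusted p under 0.05: Wnt3a (0.0493), Evx1 (0.0276), T (0.0275), Msgn1 (0.0263), Ttr (0.000111), Afp (0.0482), Apob (0.0052) and Cubn (0.00803). For the others the adjusted p was between 0.0614 and 0.540. Over all 13617 genes 37 passed. Each genotype has 1 male and the fit has 2 residual degrees of freedom, so sex cannot be told apart from these single embryos.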

How the results depend on the processing

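Hoxa6, Hoxa7, Hoxa9 and Hoxa13 kept their direction in all 17 alternatives, and none of the 6 genes had an adjusted p under 0.05 in any. The range for Hoxa6 was -1.77 to -0.66, the latter on log2(RPKM + 1). With voom on recovered reads Hoxa6 was at -0.70, close to Hoxa13 at -0.62. Leaving out each library in turn gave -1.77 to -0.86 for Hoxa6, -0.40 to -0.06 for Hoxa7, -0.65 to -0.24 for Hoxa9, -0.03 to 0.41 for Hoxa10, -0.33 to 0.10 for Hoxa11 and -0.73 to -0.05 for Hoxa13. Hoxa10 was reversed in sign without MommeD43 replicate 1 (-0.026), without MommeD43 replicate 3 (-0.02) and with voom on recovered reads (-0.17). Hoxa11 was reversed without WT replicate 1 (0.10) and without MommeD43 replicate 2 (0.10). The cause was not tested. Of the 6 genes, 4 to 6 were lower in every alternative. The number at an unadjusted p under 0.05 was 1 in the reported fit, 2 with sex as a covariate, 0 with females alone, 0 without a mean-variance trend, 0 with voom on recovered reads and 1 (Hoxa9) with voom and sample quality weights, and 0 to 3 when a library was left out (3 without MommeD43 replicate 2, 2 without WT replicate 1 and 0 without WT replicate 2 or 3 or MommeD43 replicate 1). Genes past an adjusted p of 0.05 numbered 0 in every alternative but females alone, where there were 10 (1188 before adjustment). Within a library, the log2 ratio of Hoxa6 to Hoxa5 ranged from -1.67 to -0.83 and that of Hoxa6 to Hoxa7 from -1.37 to -0.65 over 9 alternatives.

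By the labels number 1 marks embryos of the same mother, while numbers 2 and 3 mark embryos of different mothers. Correlations of deviations of same-numbered samples were -0.03, 0.17 and -0.17, and only the samples numbered 2 correlated best with each other. These are deviations from means of 3 libraries, so they are a weak guide to pairing. The study describes its embryos as paired by somite number, and all here had 8 somites. The numbers were not taken as pairs in the reported fit. With the replicate block, 0 genes had an adjusted p under 0.05, and 3 of the 6 genes had an unadjusted p under 0.05 (Hoxa6 0.0133, Hoxa7 0.0449 and Hoxa9 0.0352), with exact permutation p of 0.25 for both ratios. Hoxa6 rests on 6 and 8 reads in 2 libraries, which limits the precision of its level there.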
